A study of Mus musculus with 19 samples.

Results

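RNA of 2cell mouse embryos was compared between 4 libraries labelled KO (KO_2cell A to D) and 5 labelled heterozygous (Het_2cell A to E), which are 9 of the 19 libraries of the series. All genes with at least 0.1 FPKM in 4 or more of these 9 libraries were tested, 14051 of the 25891 genes in the table. The labels give only KO and Het as genotypes, of females described as CPEB3 KO and CPEB3 HET. The methods give the knockout as CPEB3 LoxP/LoxP; ZP3 Cre+/-. The study writes the Het group as CPEB3+/-, but its methods count CPEB3 LoxP/-; ZP3 Cre+/- as wild type, so whether the Het females carried Cre is not settled by the sources used here. ZP3 drives Cre in growing oocytes only, so the deletion concerns the maternal gene copies, and the study mated knockout females with wild-type males. BL6 females of 6 to 10 weeks received 5 IU of PMSG and, 48 h later, 5 IU of hCG, and the embryos were collected 37 h after hCG, following culture of zygotes in M16 medium. According to the methods each library was made from 5 cells with a Smart-seq kit. No label ties a library to a female or a collection day, so p-values measure the spread between these libraries, which may be partly technical.

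At the 2cell stage the mouse embryo begins its own large-scale transcription while RNA inherited from the oocyte is cleared. CPEB3 belongs to the family of proteins that bind cytoplasmic polyadenylation elements and act on the translation and stability of stored mRNA. A level measured at this stage therefore mixes inherited and new transcripts, and in these bulk libraries fewer cells of a kind and less RNA per cell cannot be told apart.

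In the limma fit, 2565 of the 14051 genes (18.3%) passed an adjusted p of 0.05 and a 1.5-fold difference, the rule meant by "called" throughout. Of these, 1181 (8.41% of the genes tested) were higher and 1384 (9.85%) lower in the libraries labelled KO. The groups did not overlap in FPKM for 2095 of the called genes, and for 20.0% of all genes tested. Changes beyond 4-fold were called for 64 genes higher and 52 lower, and the median size of a called change was 0.96 on the log2 scale. Scaling each library to its sum of FPKM, in place of trimmed means of log ratios, moved the median log2 fold change of all genes from -0.01 to 0.26 and gave 2423 higher and 573 lower calls, so that 80.9% of the calls were higher against 46.0%.

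Depth, read from the steps of low FPKM values, was 17200000 to 20200000 fragments in Het_2cell and 17200000 to 19260000 fragments in KO_2cell libraries. At the median exon length, 10 fragments correspond to about 0.184 FPKM at this depth, so values below this rest on few fragments. The sum of FPKM was 135309 to 159320 in Het_2cell and 113886 to 123318 in KO_2cell libraries. Protein genes of the mitochondrial genome held 17.8 to 24.2% of it in Het_2cell and 11 to 16.3% in KO_2cell libraries.

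The called genes differed in base composition. The median GC content of the longest transcript was 53.8% among genes called higher, 44.3% among genes called lower and 48.6% over all genes tested. Of the 1038 genes under 40% GC, 26.7% were called lower and 1.06% higher. Of the 472 genes at or above 60% GC, 1.06% were called lower and 26.1% higher. Across the 13933 genes with a known GC content, which are not independent replicates, Pearson's r of the log2 fold change with GC was 0.36. The fit was therefore repeated after the trend with GC content had been removed from each library. It called 829 genes higher (5.95% of 13933) and 1020 lower (7.32%), and 1504 of the 2543 earlier calls with a known GC content were called again in the same direction. The origin of the trend was not tested, and counts after the correction are given with those before it.

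**Figure D1:**
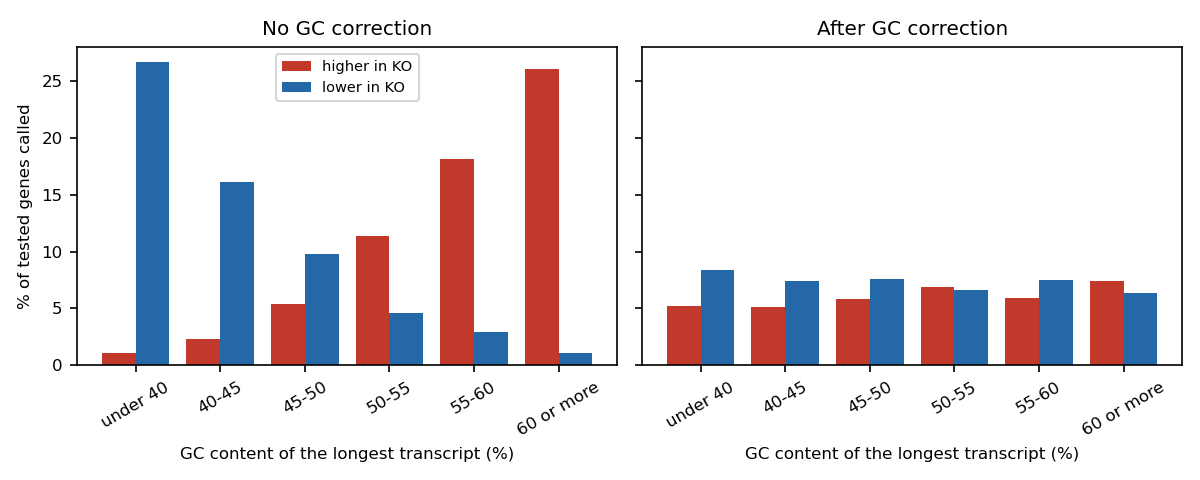
Share of tested genes called higher (red) or lower (blue) in KO against Het 2cell embryos, in % on the vertical axes, by GC content of the longest transcript on the horizontal axes, without (left) and with (right) the GC correction. Without it the share called lower fell from 26.7% under 40% GC to 1.06% at 60% or more while the share called higher rose from 1.06% to 26.1%, and with it the shares lay between 5.16% and 8.38%.

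Called genes also differed in their level in MII oocytes, in the 5 Het_MII libraries. Of 988 genes at 10 FPKM or more there, 23.2% were called lower and 5.16% higher in KO 2cell embryos. Of 1255 genes at 0 FPKM in all 5, 4.30% were called lower and 7.81% higher. After GC correction these shares were 17.2% and 4.99% for the abundant oocyte transcripts and 2.93% and 6.03% for those at 0. Of 2175 processed pseudogenes tested, 13.2% were lower and 3.36% higher, against 9.86% and 9.74% of 9612 protein-coding genes. After GC correction the shares were 11.6% and 2.48% for processed pseudogenes, against 7.12% and 6.36% for protein-coding genes. Without GC correction, the median length of the longest transcript was 2737 bases for genes called higher, 1960 bases for genes called lower and 2209 bases for all genes tested. The autosomes had between 5.31% (chromosome 15) and 14.6% (chromosome 18) of their tested genes called lower. After GC correction these shares were 4.16% for chromosome 15 and 9.79% for chromosome 18.

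The deleted gene was examined for the labels. *Cpeb3* lay near 0 in every library, below the filter, at 0.0204, 0.0236, 0.0265, 0.0566 and 0.0246 FPKM in Het_2cell A to E and 0.0599, 0.0362, 0.0633 and 0.0624 FPKM in KO_2cell A to D. The libraries labelled KO were not lower. The difference in means of 0.0251 FPKM had a two-sided exact permutation p of 0.0476, and 0.0635 after scaling by trimmed means. Without Het_2cell A, B, C or E it was 0.0571 and without KO_2cell A, C or D 0.0893, by the same exact test, against 0.0286 without Het_2cell D and 0.0179 without KO_2cell B. Values cover the whole gene, so they do not separate deleted exons from the rest. They do not test the deletion, and KO stands here for the label. In knockout oocytes the study reported that *Cpeb3* mRNA was absent by PCR and that CPEB3 protein was significantly reduced by immunoblot.

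Among protein-coding genes with groups that do not overlap, a group mean of at least 5 FPKM and a call also after GC correction, and leaving out provisional symbols and candidates named in the study, the 10 largest rises included *Sprr2e*, a cornified envelope protein of epithelia (chromosome 3, 92352143 to 92353449, plus strand, GRCm38), at 0.662, 0.478, 0.754, 2.60 and 0.454 FPKM in Het_2cell A to E and 4.24, 11.2, 7.22 and 6.06 FPKM in KO_2cell A to D. As this selection required, all 4 KO_2cell libraries lay above all 5 Het_2cell libraries. The means were 0.989 ± 0.907 (SD, n = 5) and 7.17 ± 2.93 FPKM (SD, n = 4), a 7.25-fold ratio (log2 fold change 2.89, SE 0.47, adjusted p = 0.00417, limma). Below, values with ± are the mean and SD of the 5 Het_2cell and then of the 4 KO_2cell libraries. *Ciart*, a repressor in the circadian clock, rose from 1.68 ± 0.551 to 7.93 ± 1.76 FPKM (log2 fold change 2.15, SE 0.23, adjusted p = 0.00107). *Tent5b*, a non-canonical poly(A) polymerase, was listed at 1.58, 1.42, 1.66, 1.87 and 1.5 FPKM in Het_2cell A to E and 6.33, 8.95, 6.04 and 8.25 FPKM in KO_2cell A to D. Its ratio of 4.61 exceeded the spread within either group (log2 fold change 2.07, SE 0.16, adjusted p = 0.000628). *Phf1*, a partner of Polycomb repressive complex PRC2, rose from 2.92 ± 0.919 to 10.7 ± 1.69 FPKM, and *Prmt6*, an arginine methyltransferase of histone H3, from 2.69 ± 0.807 to 9.71 ± 2.66 FPKM. The rest of these 10 were *Tubb3* (neuronal beta-tubulin, log2 fold change 1.82), *Ccdc85b* (1.77), *Lars2* (mitochondrial leucyl-tRNA synthetase, 1.72), *Hoxd10* (2.54) and *Fthl17c* (2.51). *Fthl17c* is an X-linked ferritin-like gene with near-identical copies, among which reads may have been split.

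The 10 largest falls within the same limits included *Zfp982* (chromosome 4, 147492417 to 147513486, plus strand), a zinc finger gene with close copies nearby, at 10.2, 6.92, 2.91, 6.07 and 6.35 FPKM in Het_2cell A to E and 0.288, 0.706, 0.628 and 0.442 FPKM in KO_2cell A to D. Its lowest Het_2cell library lay above every KO_2cell library, as these limits required, and the ratio of the means was 12.6 (log2 fold change -3.42, SE 0.37, adjusted p = 0.00107). Its neighbour family member *Zfp980* fell from 5.64 ± 1.47 to 1.16 ± 0.141 FPKM (log2 fold change -2.20, SE 0.24, adjusted p = 0.00107). *Ctsc*, cathepsin C of the lysosome (chromosome 7, 88278085 to 88310888, plus strand), was listed at 4.76, 4.15, 3.68, 6.22 and 8.47 FPKM in Het_2cell A to E and 1.20, 0.663, 0.626 and 0.796 FPKM in KO_2cell A to D. Its mean fell 6.64-fold (log2 fold change -2.62, SE 0.26, adjusted p = 0.00106). *Lpar6*, a receptor for lysophosphatidic acid, fell from 8.68 ± 2.71 to 2.15 ± 0.643 FPKM (log2 fold change -2.0, SE 0.25, adjusted p = 0.00164). *Oog3*, an abundant oogenesin gene of the PRAME family, was listed at 1151, 996, 710.2, 788 and 979 FPKM in Het_2cell A to E and 293, 341, 254 and 229.9 FPKM in KO_2cell A to D. Both *Oog3* (log2 fold change -1.78, SE 0.19, adjusted p = 0.00107) and the related *Pramel6* (log2 fold change -1.73, SE 0.31, adjusted p = 0.00636) belong to families with close copies.

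Of the transcripts of the mitochondrial genome, *mt-Cytb* fell from 8087 ± 1698 to 2536 ± 249.7 FPKM (log2 fold change -1.71, SE 0.18, adjusted p = 0.00107), *mt-Nd5* by 1.73 and *mt-Atp6* by 1.48 on the log2 scale. *mt-Atp8* (log2 fold change -2.27) and *mt-Nd4l* (-1.84) overlap their neighbours, so their reads cannot be told apart fully. *mt-Nd1* and *mt-Co1* were called at -0.87 and -0.61 but not after GC correction (-0.41 and -0.24, adjusted p = 0.129 and 0.246). The call of *mt-Co1* was also lost without Het_2cell B or Het_2cell E, where the log2 fold change was -0.56 and -0.55, and without KO_2cell B (adjusted p = 0.0510).

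Of the 4 abundant genes called higher that are given here, 3 are annotated as non-coding RNA. Genes with provisional symbols (Gm and a number, or ending in Rik) were left out, among them *Gm44087* and *B020031M17Rik*, both called higher with a mean FPKM above that of *Rn7s1*. *CT010467.1*, annotated as ribosomal RNA, was listed at 471, 514, 739.5, 597 and 458 FPKM in Het_2cell A to E and 1924, 1596, 1725 and 2610.3 FPKM in KO_2cell A to D (log2 fold change 1.76, SE 0.18, adjusted p = 0.00106). *Rn7s1* and *Rn7s2*, copies of the 7SL RNA of the signal recognition particle, were called at 0.99 and 0.80, but at 0.49 and 0.30 after GC correction they were not (adjusted p = 0.128 and 0.259). The protein-coding gene *AF067061* was called without the correction at 0.77 and with it at 0.89. The part of these RNAs in the other differences was not tested.

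**Figure D2:**
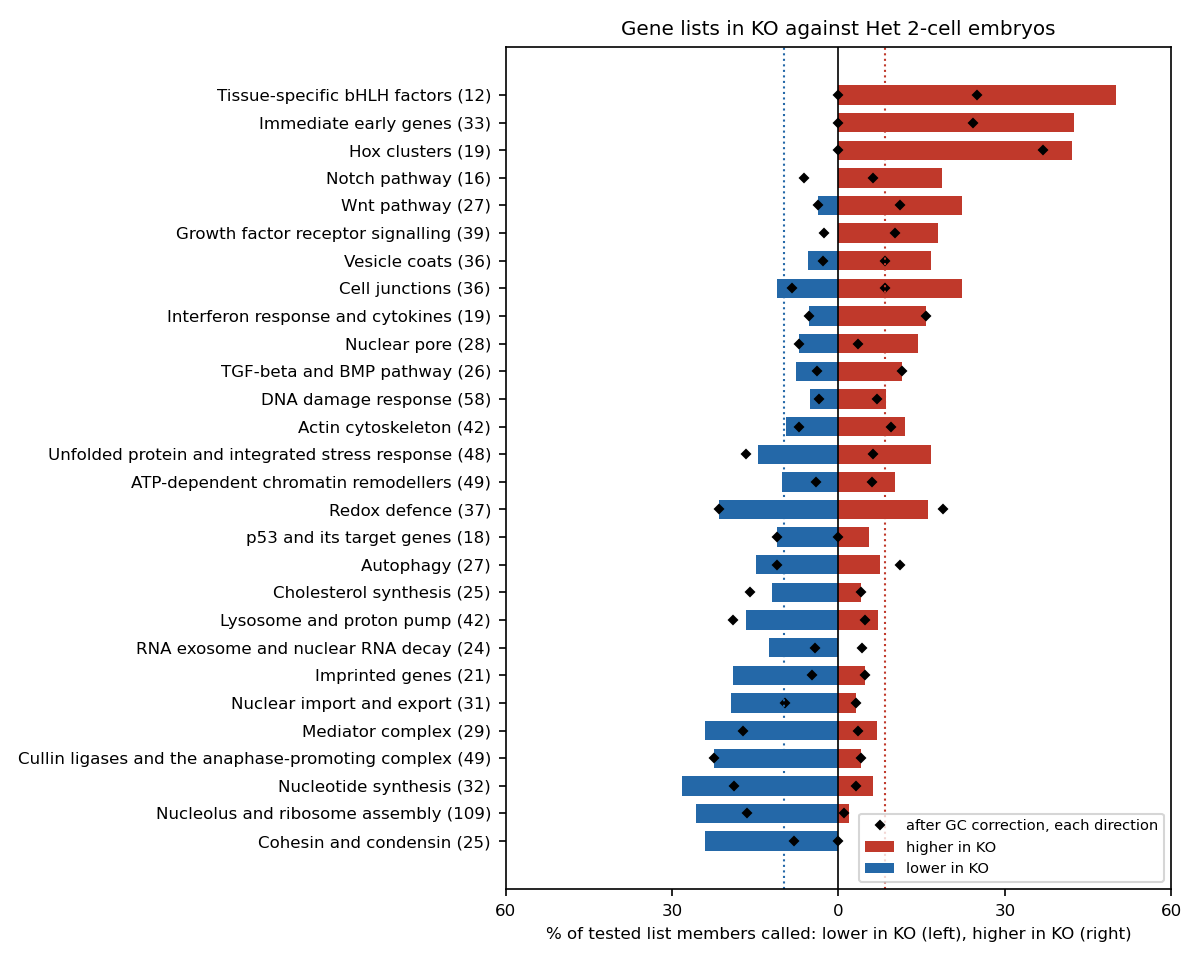
Share of the tested members of 28 gene lists (number tested in brackets) called higher (red, to the right) or lower (blue, to the left) in KO against Het 2cell embryos, in %, for lists with at least 3 calls other than cell type markers. Diamonds give the shares after GC correction and dotted lines the background over all genes tested, 8.41% higher and 9.85% lower. The immediate early genes reached 42.4% on the right and the nucleolus list 25.7% on the left, and the shares of the Hox and bHLH lists rest on the 19 of 34 and 12 of 27 measured members that passed the filter.

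Immediate early genes encode transcription factors and feedback regulators that are switched on within minutes of growth factor, calcium or stress signals without new protein synthesis. Of 33 tested, 14 were called higher (42.4% against 8.41% of all genes) and 0 lower, and the median log2 fold change was 0.78 against -0.01 over all genes. The list was GC-rich, with a median transcript GC of 56.0%. After GC correction 8 were called higher and 0 lower, with a median of 0.63. Leaving out 1 library left 11 to 15 higher, scaling to the sum of FPKM gave 22 and a pseudocount of 1 FPKM 13. The summed level of the list was 94.7 to 123 FPKM in Het_2cell and 161 to 220.3 FPKM in KO_2cell libraries.

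Among the transcription factors of this list, 9 of 18 rose (7 after GC correction). *Junb*, a subunit of AP-1, was listed at 0.511, 0.701, 0.602, 0.251 and 0.385 FPKM in Het_2cell A to E and 1.48, 2.43, 2.06 and 2.02 FPKM in KO_2cell A to D. All KO_2cell values lay above all Het_2cell values (log2 fold change 1.82, SE 0.27, adjusted p = 0.00290). *Fos*, its partner in AP-1, rose from 0.778 ± 0.259 to 2.38 ± 0.998 FPKM, with the lowest KO_2cell library at 1.36 and the highest Het_2cell library at 1.10 FPKM (log2 fold change 1.41, SE 0.30, adjusted p = 0.0115). *Egr1*, a zinc finger factor induced by growth factors, was listed at 0.988, 1.07, 0.977, 1.06 and 0.852 FPKM in Het_2cell A to E and 2.17, 2.47, 2.39 and 2.87 FPKM in KO_2cell A to D. Its spread within the groups was small beside the difference (log2 fold change 1.18, SE 0.14, adjusted p = 0.00148). *Ier2* rose from 7.86 ± 2.64 to 20.5 ± 4.86 FPKM, and *Bhlhe40*, a repressor that also acts in the circadian clock, from 0.459 ± 0.228 to 1.45 ± 0.161 FPKM. These 5 factors were also called after GC correction, at 1.31, 1.29, 0.86, 0.89 and 1.49.

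Of the feedback regulators, 5 of 15 rose (1 after GC correction, 3 to 6 with 1 library left out). *Dusp4*, a nuclear phosphatase that inactivates MAP kinases, had the largest rise of the list, at 0.253, 0.447, 0.911, 0.438 and 0.389 FPKM in Het_2cell A to E and 2.31, 2.67, 1.79 and 3.11 FPKM in KO_2cell A to D. The lowest KO_2cell library lay above the highest Het_2cell library, as the rule by which it was named required (log2 fold change 2.14, SE 0.28, adjusted p = 0.00170, 1.86 after GC correction). *Gadd45b* and *Gadd45g*, growth arrest and DNA damage-inducible proteins, rose from 18.3 ± 2.75 to 31.3 ± 4.42 FPKM and from 3.82 ± 1.0 to 9.51 ± 2.12 FPKM. After GC correction *Gadd45b* stood at 0.41, under 1.5-fold, and *Gadd45g* at 0.83 with an adjusted p of 0.0502, and neither was called.

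**Figure D3:**
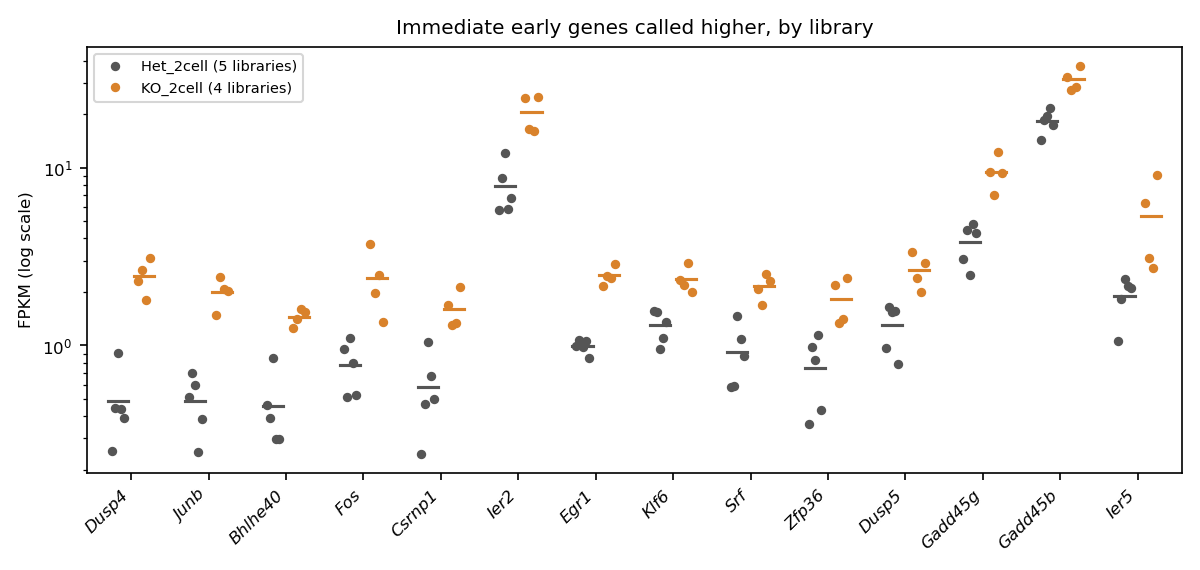
Deposited FPKM (log axis) of the 14 immediate early genes called higher, by library, with Het_2cell (grey, 5 libraries) and KO_2cell (orange, 4 libraries). Horizontal bars are means, and in each of the 14 genes every KO_2cell library lies above every Het_2cell library.

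Promoter sequences of the immediate early genes are shown because several are known to be bound by SRF, itself a member of the list, at the CArG box. RefSeq sequences from 250 bases before to 50 bases after the start (GRCm38.p6) were matched by symbol for 24 of the 33 tested members and for 8042 of all 14051 genes. A CArG box, which reads alike on both strands, was found in 3 of the 24 and in 1.74% of the 8042. The 3 are *Dusp5*, *Srf* and *Zfp36*, all called higher. The CRE palindrome TGACGTCA, another element of such promoters, was found in 4 of the 24, none of them called, and in 3.62% of all. Windows of 60 bases around a CArG box, which lie wholly before the start, are given with such boxes in capitals on the strand of the gene, 5′ to 3′.
Dusp5 (chr19:53529048-53529107, plus strand): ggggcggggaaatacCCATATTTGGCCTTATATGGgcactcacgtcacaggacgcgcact
Srf (chr17:46556190-46556249, minus strand): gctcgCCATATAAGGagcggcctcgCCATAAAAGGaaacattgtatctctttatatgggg
Zfp36 (chr7:28379252-28379311, minus strand): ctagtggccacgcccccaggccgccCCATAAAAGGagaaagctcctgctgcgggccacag
The stretches of *Dusp5* and *Srf* hold 2 such boxes each, adjoining in *Dusp5*, and that of *Zfp36* holds 1. The box nearest the start ended 63, 53 and 49 bases before it. The log2 fold changes were 0.95 for *Dusp5*, 1.15 for *Srf* and 1.20 for *Zfp36*, and none of the 3 was called after GC correction (adjusted p = 0.0829, 0.104 and 0.0581). The call of *Dusp5* was also lost without KO_2cell A or D (adjusted p = 0.0567 and 0.0554), and that of *Zfp36* without Het_2cell E, KO_2cell A or KO_2cell D (0.0611, 0.0682 and 0.0731). A match describes the letters and is not evidence of binding.

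Hox genes, which set position along the body axis and are usually silent before implantation, had low levels. Of the 34 Hox genes measured, 19 passed the filter, and 8 of these were called higher and 0 lower (42.1% higher beside 8.41% of all genes), with a median log2 fold change of 1.11. Genes that passed the filter only through the KO libraries had to differ, so these counts are a description. *Hoxd10* (chromosome 2, 74691924 to 74695105, plus strand) was listed at 1.80, 0.753, 1.37, 0.127 and 0.731 FPKM in Het_2cell A to E and 4.48, 4.47, 7.83 and 4.10 FPKM in KO_2cell A to D (log2 fold change 2.54, SE 0.55, adjusted p = 0.0124). The cluster members *Hoxd9* (log2 fold change 2.29), *Hoxd8* (1.95) and *Hoxd1* (1.64) rose as well. After GC correction 7 Hox genes were called higher, with a pseudocount of 1 FPKM 4, and among genes with a mean of at least 1 FPKM 2. *Hoxd9* would not have passed the filter on the Het_2cell libraries alone.

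Tissue-specific bHLH factors, which direct neural, muscle, pancreatic and trophoblast fates, showed 6 higher and 0 lower of 12 tested, beside 8.41% and 9.85% of all genes, 9 and 0 with scaling to the sum of FPKM, and 3 and 0 after GC correction. Only 12 of 27 measured passed the filter, and some would not have passed on the Het_2cell libraries alone, so here too the counts are a description. *Atoh1*, a factor of hair cells and cerebellar granule neurons, was listed at 0, 0.246, 0.164, 0 and 0 FPKM in Het_2cell A to E and 0.721, 0.787, 1.15 and 0.855 FPKM in KO_2cell A to D and so at 0 in 3 Het_2cell libraries (log2 fold change 2.60, SE 0.42, adjusted p = 0.00413). It passed the filter only with the KO_2cell libraries, so this p too is a description. *Ascl2*, an imprinted factor of the trophoblast, rose from 1.94 ± 0.584 to 4.90 ± 0.781 FPKM (log2 fold change 1.27, SE 0.23, adjusted p = 0.00625). Of 5 voltage-gated potassium channel genes tested, out of 29 measured, 1 was called higher and 0 lower (3 higher without KO_2cell C or with scaling to the sum, 0 with a pseudocount of 1 FPKM, 1 and 0 after GC correction).

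Signalling lists are read against the background of 8.41% higher and 9.85% lower. In the Wnt pathway 6 of 27 tested were higher and 1 lower (3 and 1 after GC correction, 13 and 0 with scaling to the sum of FPKM, 0 and 1 with a pseudocount of 1 FPKM), or 22.2% and 3.70%. The count of 6 was 3 without Het_2cell B, Het_2cell E or KO_2cell C and 2 without KO_2cell A. Its receptor *Fzd8* was listed at 0.210, 0.125, 0.121, 0.273 and 0.0148 FPKM in Het_2cell A to E and 0.773, 0.966, 0.485 and 0.464 FPKM in KO_2cell A to D (log2 fold change 1.64, SE 0.36, adjusted p = 0.0125), and the feedback inhibitor *Axin2* rose from 0.345 ± 0.0759 to 0.807 ± 0.130 FPKM (log2 fold change 0.98, SE 0.18, adjusted p = 0.00649). Of 39 genes of growth factor receptor signalling 7 were higher and 0 lower (4 and 1 after correction, 12 and 0 with scaling to the sum, 1 and 0 with a pseudocount of 1 FPKM), or 17.9% and 0%. The count of 7 was 4 without Het_2cell E, KO_2cell C or KO_2cell D. They include the ligand *Pdgfa* (log2 fold change 1.23), the adaptor *Irs2* of the insulin receptor (1.32, which would not have passed the filter on the Het_2cell libraries alone), the transcription factor *Stat3* (0.99) and its inhibitor *Socs3* (0.86). *Socs3* was not called after correction (0.48, adjusted p = 0.115).

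In the Notch pathway 3 of 16 were higher and 0 lower (1 and 1 after correction, 6 and 0 with scaling to the sum, 2 and 0 with a pseudocount of 1 FPKM), but 6 higher without Het_2cell A and 2 without Het_2cell D, KO_2cell A, B or D. Among them was *Aph1a*, a subunit of the gamma-secretase that cleaves the receptor (log2 fold change 1.26, SE 0.24, adjusted p = 0.00812). Of 26 TGF-beta and BMP genes 3 were higher and 2 lower (3 and 1 after correction, 13 and 1 with scaling to the sum, 0 and 0 with a pseudocount of 1 FPKM, 0 and 1 with no filter on low values). The uncorrected shares, 11.5% and 7.69%, lay near the background, and the counts were 1 higher without KO_2cell A or B, and 1 lower without any library except Het_2cell B and KO_2cell B. The receptor gene *Tgfbr1* fell from 0.548 ± 0.125 to 0.193 ± 0.0498 FPKM (log2 fold change -1.18, SE 0.20, adjusted p = 0.00519). *Smad4*, the common signal transducer, was called higher at 0.63, a call lost without Het_2cell A, where it was 0.57, or without KO_2cell A, B or C (adjusted p = 0.0547, 0.0538 and 0.0525). In the Hedgehog pathway 2 of 5 tested genes were higher and 0 lower, with and without GC correction, but 1 and 0 with a pseudocount of 1 FPKM. Of these, the transcription factor gene *Gli3* was listed at 0.213, 0.219, 0.270, 0.256 and 0.192 FPKM in Het_2cell A to E and 0.898, 0.870, 0.927 and 0.883 FPKM in KO_2cell A to D, nearly constant within each group (log2 fold change 1.55, SE 0.14, adjusted p = 0.00106), and the kinase gene *Stk36* rose by 1.08 (log2).

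The integrated stress response and the unfolded protein response link protein synthesis to amino acid supply and to protein folding in the endoplasmic reticulum (ER). Of 48 genes tested, 8 were higher and 7 lower (16.7% and 14.6% against 8.41% and 9.85% of all genes), and 3 and 8 after GC correction, 5 and 5 without KO_2cell A, 13 and 3 with libraries scaled to the sum of FPKM, and 6 and 4 with a pseudocount of 1 FPKM. Of 13 sensors and transcription factors 4 were higher and 0 lower (30.8% higher), and 1 and 0 after GC correction. Of 24 ER chaperones and degradation factors 1 was higher and 7 lower (29.2% lower), 1 and 8 after GC correction, but 3 and 3 with libraries scaled to the sum of FPKM. Of 11 genes of amino acid supply 3 were higher and 0 lower (27.3% higher), 1 and 0 after GC correction, and 1 to 3 higher with 1 library left out.

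*Ddit3*, which encodes the stress-induced factor CHOP, was listed at 5.46, 5.74, 7.20, 5.01 and 4.0 FPKM in Het_2cell A to E and 15.2, 17.8, 17.9 and 17.9 FPKM in KO_2cell A to D. The groups lay far apart beside their spread (log2 fold change 1.60, SE 0.17, adjusted p = 0.00107, 1.72 after GC correction). *Atf4*, the central factor of the integrated stress response, rose from 26.5 ± 5.92 to 46.2 ± 10.1 FPKM with overlapping groups (log2 fold change 0.74, SE 0.17, adjusted p = 0.0167). *Ppp1r15a*, which encodes the phosphatase subunit GADD34 that restores translation, rose from 37.3 ± 7.84 to 60.5 ± 6.61 FPKM (log2 fold change 0.66, SE 0.15, adjusted p = 0.0132). After GC correction neither *Atf4* nor *Ppp1r15a* was called (adjusted p = 0.0665 and 0.0881). *Slc7a5*, a transporter of large neutral amino acids, rose from 0.266 ± 0.102 to 0.668 ± 0.0482 FPKM and was also called after correction (0.77).

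*Hspa5*, which encodes the main ER chaperone BiP, was listed at 38.4, 43.7, 39.3, 45 and 41.9 FPKM in Het_2cell A to E and 20.5, 21.3, 22.7 and 21.4 FPKM in KO_2cell A to D. Its values varied little within the groups and fell 1.94-fold (log2 fold change -1.01, SE 0.10, adjusted p = 0.00106). *Dnajb9*, a BiP co-chaperone, was listed at 93.7, 99.2, 66.1, 89.1 and 99.7 FPKM in Het_2cell A to E and 42.1, 35.8, 38.6 and 34.0 FPKM in KO_2cell A to D (log2 fold change -1.29, SE 0.15, adjusted p = 0.00134). *Pdia3*, a disulfide isomerase, fell from 3.8 ± 1.01 to 1.63 ± 0.231 FPKM, *Dnajc3*, another co-chaperone, from 0.931 ± 0.0698 to 0.50 ± 0.0364 FPKM, and *Selenos*, a selenoprotein of ER-associated degradation, from 30.6 ± 7.54 to 16.4 ± 0.952 FPKM. All 5 were also called lower after GC correction. *Herpud1*, the ER-associated degradation gene that was called higher, was listed at 0.0321, 0.155, 0.122, 0.124 and 0.0869 FPKM in Het_2cell A to E and 1.04, 0.684, 0.503 and 0.677 FPKM in KO_2cell A to D (log2 fold change 1.98, SE 0.25, adjusted p = 0.00156). It reached 0.1 FPKM in 3 Het_2cell libraries and so passed the filter only with the KO_2cell libraries, where it is high, which makes this p a description.

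**Figure D4:**
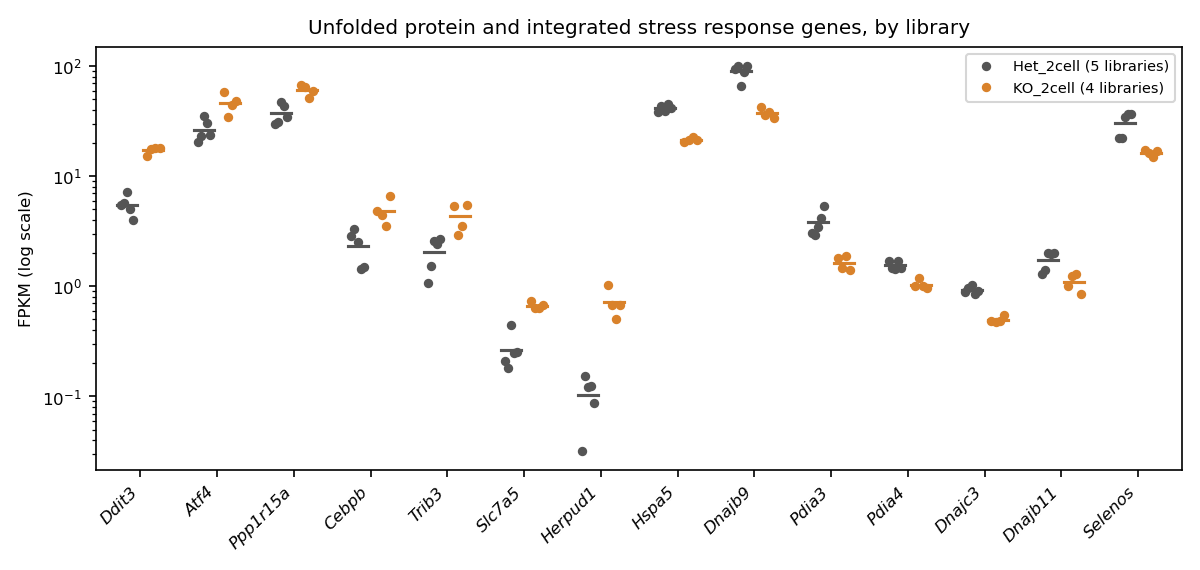
Deposited FPKM (log axis) by library of 14 genes of the unfolded protein and integrated stress responses that were called, with Het_2cell (grey, 5 libraries), KO_2cell (orange, 4 libraries) and means as bars. Ddit3 to Herpud1 were higher and Hspa5 to Selenos lower in KO_2cell libraries, and the groups overlap for Atf4 and Dnajb11.

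Of 42 genes of the lysosome and its proton pump 3 were higher and 7 lower (16.7% lower against 9.85% of all genes), 2 and 8 after GC correction 5 and 6 with scaling to the sum of FPKM and 1 and 7 with a pseudocount of 1 FPKM. The summed level was 109 to 128 FPKM in Het_2cell and 83.9 to 89.9 FPKM in KO_2cell libraries. Besides *Ctsc*, the cathepsin gene *Ctsl* was listed at 24.0, 27.7, 19.5, 25.7 and 27.7 FPKM in Het_2cell A to E and 10.3, 8.44, 9.71 and 9.45 FPKM in KO_2cell A to D (log2 fold change -1.43, SE 0.14, adjusted p = 0.00106). *Lamp2*, a membrane protein of the lysosome, fell from 1.06 ± 0.365 to 0.214 ± 0.0578 FPKM (log2 fold change -1.89, SE 0.25, adjusted p = 0.00186), and the tetraspanin gene *Cd63* from 8.39 ± 1.85 to 3.46 ± 1.14 FPKM (log2 fold change -1.33, SE 0.21, adjusted p = 0.00401). *Ctsb*, another cathepsin gene (log2 fold change -0.89), and *Atp6ap2* of the proton pump (-1.54) fell too. *Tfe3*, a transcription factor of lysosomal genes, rose from 0.562 ± 0.359 to 1.57 ± 0.182 FPKM (log2 fold change 1.46, SE 0.35, adjusted p = 0.0182).

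Of 27 autophagy genes 2 were higher and 4 lower (7.41% and 14.8% against 8.41% and 9.85% of all genes), but 5 and 0 with scaling to the sum of FPKM, 3 and 3 after GC correction, 1 and 3 with a pseudocount of 1 FPKM, and 2 and 2 without KO_2cell A or C. *Map1lc3b*, the autophagosome marker LC3B, fell from 62.4 ± 14.8 to 35.1 ± 4.85 FPKM with overlapping groups (log2 fold change -0.85, SE 0.18, adjusted p = 0.0110), and *Atg101*, a subunit of the initiating kinase complex, rose from 8.24 ± 0.812 to 18.3 ± 2.25 FPKM (log2 fold change 1.09, SE 0.12, adjusted p = 0.00118). *Bnip3*, a mitophagy receptor, was called at -0.92 but not after GC correction (adjusted p = 0.0717) or without KO_2cell A, C or D (adjusted p = 0.0639, 0.05003 and 0.0504). Redox genes had 6 higher and 8 lower of 37 (16.2% and 21.6%), 7 and 8 after GC correction, 9 and 3 with scaling to the sum of FPKM, and 4 and 1 with a pseudocount of 1 FPKM. The count of 8 lower was 5 without KO_2cell B and 3 without KO_2cell C. The glutathione transferase gene *Gstp2*, which shares sequence with *Gstp1*, was listed at 2.78, 3.28, 2.77, 3.63 and 2.34 FPKM in Het_2cell A to E and 10.1, 10.8, 11.3 and 8.20 FPKM in KO_2cell A to D (log2 fold change 1.69, SE 0.16, adjusted p = 0.00106). *G6pdx*, which supplies NADPH, rose from 5.19 ± 1.63 to 12.6 ± 2.11 FPKM and *Hmox1*, the inducible heme oxygenase, by 1.05 (log2). *Hmox2*, the constitutive heme oxygenase, fell from 0.75 ± 0.153 to 0.198 ± 0.0654 FPKM (log2 fold change -1.56, SE 0.20, adjusted p = 0.00170), and *Nfe2l2*, which encodes the antioxidant regulator NRF2, by 0.88.

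Ribosome assembly in the nucleolus is resumed with embryonic transcription. Of 109 tested genes of the nucleolus and ribosome assembly 28 were called lower (25.7% against 9.85% of all genes) and 2 higher, with a median log2 fold change of -0.28. With scaling to the sum of FPKM the balance turned, to 6 lower and 9 higher, while the list's median still lay -0.25 from that of all genes. After GC correction 18 were lower and 1 higher (median -0.27). Leaving out 1 library left 20 to 30 lower, and a pseudocount of 1 FPKM gave 18 lower and 1 higher. By role, 11 of 32 genes of small subunit assembly and 14 of 48 of large subunit assembly were lower, against 1 of 14 RNA polymerase I genes and 2 of 15 genes of the box C/D and H/ACA ribonucleoproteins. After GC correction these counts were 7, 8, 1 and 2. With 1 library left out they were 8 to 12, 9 to 14, 0 to 1 and 0 to 4.

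*Nob1*, the nuclease that matures the 18S rRNA end, was listed at 3.40, 2.84, 5.25, 4.52 and 4.68 FPKM in Het_2cell A to E and 1.71, 0.815, 0.858 and 1.54 FPKM in KO_2cell A to D. Its groups did not overlap, as the rule by which it was named required, and the fall was 3.36-fold (log2 fold change -1.76, SE 0.25, adjusted p = 0.00238, -1.92 after GC correction). *Ftsj3*, an rRNA methyltransferase, fell from 5.01 ± 0.547 to 2.54 ± 0.321 FPKM (log2 fold change -1.01, SE 0.13, adjusted p = 0.00162), and *Brix1*, of large subunit assembly, from 29.2 ± 6.74 to 13.8 ± 1.99 FPKM (log2 fold change -1.11, SE 0.17, adjusted p = 0.00360). *Ncl*, which encodes nucleolin, was called at -0.76 but fell under 1.5-fold after correction (-0.52). *Ltv1*, of small subunit assembly, fell from 5.96 ± 1.60 to 2.81 ± 0.541 FPKM. The 2 genes called higher were *Naf1* (0.67), of H/ACA particle assembly, and *Cd3eap* (0.76), a subunit of RNA polymerase I. *Cd3eap* lost its call after GC correction (0.50, adjusted p = 0.122), without Het_2cell B or E (adjusted p = 0.0701 and 0.0509) and without KO_2cell A, B, C or D (0.0750, 0.0566, 0.0525 and 0.0876).

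Promoters of this list are shown because many carry an ETS-type site. *Gabpa* encodes an ETS factor that binds such sites. Other ETS genes are not given here, and no link between *Gabpa* and the genes of this list was tested. *Gabpa*, looked up after its value was seen, was listed at 8.19, 9.03, 6.91, 9.63 and 12.7 FPKM in Het_2cell A to E and 3.55, 2.70, 2.43 and 2.90 FPKM in KO_2cell A to D (log2 fold change -1.69, SE 0.18, adjusted p = 0.00107, -1.38 after GC correction). The octamer CCGGAAGT, searched on both strands (ACTTCCGG on the other) in the same windows, was found in 28 of the 95 members with a promoter sequence (29.5%) and in 9.36% of all 8042 genes. Among members called lower it was found in 8 of 26 (30.8%). Among all genes called lower 10.1% held it and among those called higher 9.33%. For 3 members called lower, windows of 60 bases around the octamer (capitals), which lie wholly before the start, are given on the strand of the gene.
Emg1 (chr6:124712189-124712248, minus strand): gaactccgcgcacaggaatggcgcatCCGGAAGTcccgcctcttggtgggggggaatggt
Ltv1 (chr10:13193160-13193219, minus strand): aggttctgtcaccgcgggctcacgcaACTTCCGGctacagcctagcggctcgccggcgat
Polr1c (chr17:46248054-46248113, minus strand): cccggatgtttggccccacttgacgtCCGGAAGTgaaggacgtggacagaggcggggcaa
The octamer ended 37, 49 and 35 bases before the start. The log2 fold changes of the rRNA methyltransferase gene *Emg1*, the export factor gene *Ltv1* and the polymerase subunit gene *Polr1c* were -0.97, -1.09 and -0.67, and -0.86, -0.98 and -0.87 after GC correction. Binding was not measured.

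Nucleotide synthesis supplies RNA and DNA precursors. Of 32 genes tested 9 were lower and 2 higher (28.1% and 6.25% against 9.85% and 8.41% of all genes), 6 and 1 after GC correction, and 5 and 5 with scaling to the sum of FPKM. *Umps*, which completes pyrimidine synthesis, was listed at 1.71, 1.60, 1.44, 1.65 and 1.82 FPKM in Het_2cell A to E and 0.519, 0.619, 0.543 and 1.17 FPKM in KO_2cell A to D. KO_2cell D was closest to the Het_2cell libraries but below all of them (log2 fold change -1.21, SE 0.23, adjusted p = 0.00695). *Dhodh*, the mitochondrial enzyme of the step before, rose from 0.464 ± 0.0770 to 0.939 ± 0.190 FPKM (log2 fold change 0.83, SE 0.19, adjusted p = 0.0146). The purine genes *Prps1* (log2 fold change -0.97, SE 0.12, adjusted p = 0.00153), *Aprt* (-1.14), *Ppat* (-0.99) and *Hprt* (-0.89) fell, as did *Rrm2*, of ribonucleotide reductase (-0.70). Of these, *Hprt* fell short of 1.5-fold after GC correction (-0.53).

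In protein degradation, 9 of 29 cullin ligase genes were lower and 0 higher (31.0% lower against 9.85% of all genes), and the counts were the same after GC correction, where 7.32% of all genes were lower. Of 20 genes of the anaphase-promoting complex 2 were lower and 2 higher, also after correction. With scaling to the sum of FPKM the combined list turned from 11 lower and 2 higher to 6 and 8. Without KO_2cell D it had 7 lower and 2 higher, and with a pseudocount of 1 FPKM 5 and 1. *Cul3*, a cullin scaffold, was listed at 1.83, 2.42, 1.95, 2.82 and 3.40 FPKM in Het_2cell A to E and 1.17, 1.26, 1.01 and 1.17 FPKM in KO_2cell A to D (log2 fold change -1.06, SE 0.19, adjusted p = 0.00567). *Dcaf13*, a substrate receptor for CUL4 needed in growing oocytes, fell from 1.71 ± 0.569 to 0.582 ± 0.130 FPKM (log2 fold change -1.42, SE 0.24, adjusted p = 0.00494), and *Cops2* and *Cops6* of the COP9 signalosome fell by 1.23 and 1.03. *Fzr1*, which encodes the APC activator CDH1, was listed at 0.332, 0.364, 0.452, 0.348 and 0.310 FPKM in Het_2cell A to E and 1.21, 1.80, 1.19 and 1.56 FPKM in KO_2cell A to D (log2 fold change 1.68, SE 0.18, adjusted p = 0.00107).

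Counts in nuclear complexes stand beside a background of 9.85% lower and 8.41% higher. Mediator, which links factors to RNA polymerase II, had 7 of 29 genes lower and 2 higher (24.1% and 6.90%), 5 and 1 after GC correction, and 2 and 2 with scaling to the sum of FPKM. *Med7* was listed at 16.3, 14.3, 15.5, 19.4 and 25.6 FPKM in Het_2cell A to E and 10.4, 8.16, 7.08 and 7.19 FPKM in KO_2cell A to D (log2 fold change -1.18, SE 0.18, adjusted p = 0.00360), and *Med15*, of its tail, rose from 0.563 ± 0.111 to 1.07 ± 0.118 FPKM (log2 fold change 0.78, SE 0.17, adjusted p = 0.0134). Of 31 genes of nuclear import and export 6 were lower and 1 higher (19.4% and 3.23%), 3 and 1 after correction and 2 and 2 with scaling to the sum. The count of 6 lower was 3 without Het_2cell D and 2 without KO_2cell D. The protein exporter *Xpo1* fell from 2.70 ± 0.931 to 0.979 ± 0.157 FPKM (log2 fold change -1.38, SE 0.24, adjusted p = 0.00510), the mRNA export receptor *Nxf1* from 2.65 ± 0.406 to 1.01 ± 0.281 FPKM (log2 fold change -1.38, SE 0.18, adjusted p = 0.00190), and *Ranbp3*, a cofactor of export, rose by 0.99 (log2). Of 28 nuclear pore genes 4 were higher and 2 lower (14.3% and 7.14%, 1 and 2 after correction, 6 and 2 with scaling to the sum), with *Nup62* at 0.97 and *Ranbp2* at -1.05. Of 25 cohesin and condensin genes 6 were lower (24.0%) and 0 higher, but 2 and 0 after correction and 1 and 0 with scaling to the sum. With a pseudocount of 1 FPKM 3 import and export genes and 3 cohesin and condensin genes were lower and 0 higher, and 2 nuclear pore genes were higher and 2 lower. *Esco1*, the cohesin acetyltransferase, fell from 21.5 ± 3.28 to 9.76 ± 0.542 FPKM (log2 fold change -1.17, SE 0.15, adjusted p = 0.00162).

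Further lists are set beside the same 8.41% higher and 9.85% lower. Of 49 chromatin remodeller genes 5 were higher and 5 lower, 3 and 2 after GC correction and 14 and 0 with scaling to the sum. The count of 5 higher was 3 without Het_2cell B, D or E and 2 without KO_2cell B, C or D. The count of 5 lower was 3 without KO_2cell C. *Smarcd2*, of the SWI/SNF complex, stood at 1.15 and the remodeller *Chd1* at -0.80, not called after GC correction (-0.58). Of 58 DNA damage response genes 5 were higher and 3 lower, 4 and 2 after correction, and 10 and 0 with scaling to the sum. Without Het_2cell E, KO_2cell A, B or D, 3 were higher and 0, 2, 1 and 1 lower, without KO_2cell C 4 and 0, and without Het_2cell A or B 5 and 1. With a pseudocount of 1 FPKM the remodeller list had 2 higher and 0 lower and the DNA damage list 1 and 0. *Ddb1*, which recognises UV lesions and also carries CUL4 ligases, was listed at 1.43, 1.69, 2.51, 1.80 and 1.68 FPKM in Het_2cell A to E and 5.20, 4.80, 4.58 and 4.90 FPKM in KO_2cell A to D (log2 fold change 1.34, SE 0.14, adjusted p = 0.00107). *Fancf*, of the Fanconi complex, was called at -1.02, a call lost without Het_2cell A, B or E (adjusted p = 0.0586, 0.0546 and 0.0723) and without KO_2cell C or D (0.0651 and 0.0871). Of 18 p53 genes 1 was higher and 2 lower (5 and 1 with scaling to the sum, 0 and 2 after GC correction), *Trp53inp1* at -0.96, which lost its call after GC correction (-0.55). Of 24 genes of nuclear RNA decay 3 were lower and 0 higher (0 and 2 with scaling to the sum, 1 and 1 after GC correction), among them *Pabpn1*, the nuclear poly(A)-binding protein, which fell from 65.6 ± 13.7 to 38.1 ± 3.95 FPKM (log2 fold change -0.82, SE 0.15, adjusted p = 0.00666). Of 20 aminoacyl-tRNA synthetase genes 1 was lower and 0 higher (0 lower and 3 higher with scaling to the sum, 2 lower and 0 higher after GC correction).

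Of 36 cell junction genes 8 were higher and 4 lower (22.2% and 11.1% against 8.41% and 9.85%), 3 and 3 after GC correction and 11 and 3 with scaling to the sum but 1 and 1 with a pseudocount of 1 FPKM, with the claudin genes *Cldn15* at 1.36 and *Cldn8* at -1.31. The count of 8 higher was 3 without KO_2cell C and 5 without Het_2cell A, B, D or E or KO_2cell A or D. Vesicle coat genes had 6 higher and 2 lower of 36 (3 and 1 after correction, 12 and 0 with scaling to the sum), such as the coat protein *Sec31a* (1.12) and the small GTPase *Sar1b* (-0.90, not called after correction). With a pseudocount of 1 FPKM 2 vesicle coat genes were higher and 0 lower. Actin genes had 5 higher and 4 lower of 42, 4 and 3 after correction, 8 and 1 with scaling to the sum, 1 and 3 with a pseudocount of 1 FPKM, 3 and 2 without Het_2cell E or KO_2cell C and 3 and 1 without KO_2cell D, with the integrin linker *Tln1* at 1.18 and the capping protein *Capza2* at -1.07, not called after correction (-0.54). Cholesterol synthesis had 1 higher and 3 lower of 25 (6 and 1 with scaling to the sum, 1 and 4 after GC correction). The counts were 1 and 5 without Het_2cell A, and 1 and 0 with a pseudocount of 1 FPKM. The sterol sensor *Scap* rose by 1.24, and *Acat2* fell by 1.33. Of 21 imprinted genes 1, *Ascl2*, was higher and 4 lower (2 and 1 with scaling to the sum, 1 and 1 after GC correction). The count of 4 lower was 2 without Het_2cell B or KO_2cell C and 1 without Het_2cell C, D or E or KO_2cell A or B. *Ube3a* at -0.94 was not called after GC correction. Of 19 interferon and cytokine genes 3 were higher and 1 lower, with and without GC correction (6 and 1 with scaling to the sum), but 1 higher with a pseudocount of 1 FPKM or without Het_2cell C or E or KO_2cell A or C. They include *Irf3*, a transcription factor of interferon genes (0.96), and *Tslp*, an epithelial cytokine (-1.49).

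The libraries were checked against cell type markers. Oocyte markers were present, with 28 of 28 above the filter and a summed level of 1182 to 1354 FPKM in Het_2cell and 879 to 1365 FPKM in KO_2cell libraries. Of these 2 were higher and 1 lower (7.14% and 3.57% against 8.41% and 9.85% of all genes, 2 and 3 after GC correction, 6 and 0 with scaling to the sum), and *Ooep*, of the subcortical maternal complex, rose from 29.5 ± 3.10 to 56.9 ± 3.63 FPKM (log2 fold change 0.89, SE 0.12, adjusted p = 0.00173). Of 30 markers of the 2cell stage 3 were higher and 4 lower (10.0% and 13.3%, 6 and 2 with scaling to the sum, 2 and 3 after GC correction), with sums of 883 to 1624 FPKM and 869 to 1132 FPKM. The count of 4 lower was 8 without Het_2cell C and 2 without KO_2cell D. The count of 3 higher was 1 without Het_2cell B or E or KO_2cell B or C. The 2cell marker *Tmem92* rose from 6.73 ± 1.45 to 16.4 ± 1.84 FPKM (log2 fold change 1.23, SE 0.17, adjusted p = 0.00190). Cumulus cell markers summed to 21.0 to 29.3 FPKM in Het_2cell and 9.92 to 12.0 FPKM in KO_2cell libraries, with 6 of 19 above the filter, 3 of them lower and 0 higher, and 1 and 0 after GC correction. Most of that sum was *Ctsl*, which embryos also express, and the granulosa gene *Fshr* had a mean of 0.00146 FPKM in Het_2cell and 0 in KO_2cell libraries. The origin of the difference in this sum was not tested. Oviduct markers summed to 21.2 to 28.9 and 25.8 to 35.7 FPKM, with 1 of 6 higher and 0 lower (1 and 1 after GC correction). Sperm markers summed to 3.44 to 7.29 and 5.55 to 8.01 FPKM, and blood markers, chiefly *Hba-a1*, to 57.0 to 150.4 and 48.7 to 98.7 FPKM. By limma none of the 5 sperm and 6 blood markers tested was called.

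Whether the genotype differences were particular to embryos was tested as the difference between the KO against Het contrasts in 2cell embryos and in MII oocytes (5 Het_MII and 5 KO_MII libraries). Of 15786 genes tested 1206 (7.64%) were called, 586 higher and 620 lower in KO 2cell embryos relative to the contrast in oocytes. Of the 2565 genes called in 2cell embryos 844 were called in this test in the same direction. Both tests use the same 2cell libraries, so this count is not independent of the 2cell calls. For *Ctsc* the log2 fold change was -0.12 in oocytes (adjusted p of the difference 5.84e-05), for *Lpar6* 0.08 (0.000327) and for *Hspa5* 0.08 (5.84e-05). *Ddit3* had 0.09 in oocytes (0.000189), *Dusp4* 0.12 (0.000471) and *Junb* -0.01 (0.000453). *Ctsc*, *Lpar6*, *Dusp4* and *Junb* had mean levels in oocytes far under the pseudocount of 0.1 FPKM, which holds their oocyte contrast near 0, so that for them and for other genes this low in oocytes the test repeats the 2cell difference. Of the immediate early list 9 of 33 and of the nucleolus list 11 of 109 genes were called in this test, higher and lower. A difference between the stages was not called for *mt-Cytb* (-1.55 in oocytes, adjusted p = 0.769), *CT010467.1* (1.44, 0.709), *Oog3* (-1.30, 0.523), *Zfp982* (-2.09, 0.205), *Gstp2* (1.93, 0.580) and *Lars2* (1.62, 0.912).

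**Figure D5:**
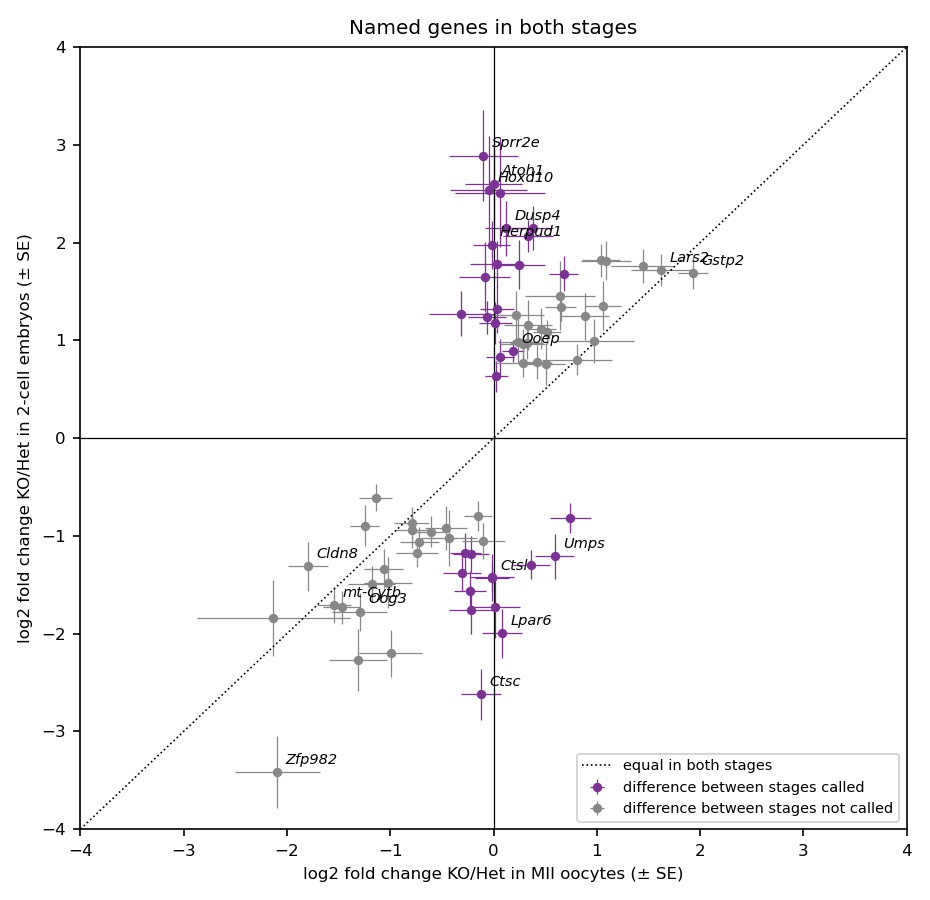
Log2 fold changes of KO against Het in MII oocytes (horizontal axis) and in 2cell embryos (vertical axis) for the 75 genes named by rule, with standard errors as bars and the dotted line of equal values. Genes with a called difference between the stages (purple, 32 genes) lie mostly near 0 in oocytes, many of them (such as Atoh1, Sprr2e, Hoxd10, Ctsc and Dusp4) because means under the pseudocount of 0.1 FPKM hold the oocyte contrast there, while Lars2, Gstp2, mt-Cytb and Oog3 lie near the dotted line.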

How the data were processed

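Per the labels and the methods, RNA of 5 cells per library was amplified with a Smart-seq v4 kit, made into libraries with Nextera XT and sequenced as 150-base pairs. The authors trimmed reads with Trim Galore 0.4.1, aligned them to GRCm38 with HISAT2 2.0.5 and computed FPKM (fragments mapped to a gene, per length of its transcript and per total of mapped fragments) in SeqMonk. The deposited table holds FPKM with no counts, and depth was estimated from the steps of low values, 45.5% of which lay within 0.05 of a whole fragment (10% by chance). The kit does not mark strand, so overlapping and antisense genes cannot be told apart, and reads of near-identical copies may be split between them.

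Libraries were grouped by label. Libraries were made comparable with trimmed mean scaling (30% of log ratios and 5% of levels trimmed), a pseudocount of 0.1 FPKM was added and log2 values were fitted with limma 3.58.1 (R 4.3.3, mean-variance trend), so fold changes of low genes are understated. Genes needed 0.1 FPKM in 4 libraries. All p-values printed as adjusted are two-sided limma p-values with Benjamini-Hochberg adjustment over all genes of the fit. Calls needed an adjusted p under 0.05 and a 1.5-fold difference. For the GC correction, a loess curve (span 0.5) of log2 level against the GC content of each gene's longest GENCODE vM21 transcript was subtracted in each library. The difference between stages was an interaction term over 19 libraries. Cpeb3 was tested by an exact permutation test. The fit of 2cell libraries without GC correction was run on simulated data with planted changes. The GC-corrected fit and the interaction fit were not simulated.

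The 37 gene lists, the members and the rules were chosen with earlier results of these data known. Genes were named by rule. The 10 largest called rises and falls were taken among protein-coding genes. They needed groups that do not overlap, a group mean of at least 5 FPKM and a call after GC correction. Candidates named in the study were left out of them. Also taken were the 4 most abundant genes called in each direction. Symbols of Gm and a number or ending in Rik were left out of both rankings. Lists with at least 3 calls gave the called members with the largest rise and the largest fall among those whose groups do not overlap. Where a rule required groups that do not overlap, their separation follows from the selection and is not a further result. The other genes named were chosen after their values were seen. Ranges of summed marker levels are over libraries, and coordinates of genes are those of the deposited table. Alternatives were other scalings, pseudocounts, filters, covariates and samples, and leaving out each library. Figures were drawn with matplotlib 3.10.9.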

Additional observations from a re-analysis of the deposited data

Results flagged for a closer look

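Of 152 groups of libraries examined (75 genes named by rule and Cpeb3, in each genotype of 2cell embryos), 12 held 1 library that stood apart from the rest by Dixon's criterion, where chance gives about 1 in 20 groups. Cpeb3 was 0.0566 FPKM in Het_2cell D, above the other 4 libraries at 0.0204 to 0.0265 FPKM. Cpeb3 was 0.0362 FPKM in KO_2cell B, below the other 3 libraries at 0.0599 to 0.0633 FPKM. Sprr2e was 2.60 FPKM in Het_2cell D, above the other 4 libraries at 0.454 to 0.754 FPKM. Hoxd10 was 7.83 FPKM in KO_2cell C, above the other 3 libraries at 4.10 to 4.48 FPKM. Tubb3 was 10.4 FPKM in KO_2cell B, above the other 3 libraries at 7.79 to 8.19 FPKM. Phf1 was 4.51 FPKM in Het_2cell C, above the other 4 libraries at 2.26 to 2.85 FPKM. Prmt6 was 13.6 FPKM in KO_2cell D, above the other 3 libraries at 7.81 to 8.77 FPKM. mt-Cytb was 2162 FPKM in KO_2cell B, below the other 3 libraries at 2651 to 2666 FPKM. Rn7s1 was 312 FPKM in KO_2cell D, above the other 3 libraries at 191 to 203 FPKM. Rn7s2 was 138 FPKM in Het_2cell A, above the other 4 libraries at 107 to 114 FPKM. Chd1 was 0.888 FPKM in KO_2cell A, above the other 3 libraries at 0.75 to 0.767 FPKM. Umps was 1.17 FPKM in KO_2cell D, above the other 3 libraries at 0.519 to 0.619 FPKM. Apart from Cpeb3 these genes kept their call with every library left out in turn.

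The genotype difference at the 2cell stage differed from that in MII oocytes by the interaction test of limma (adjusted p under 0.05, over 1.5-fold) for 32 of the 75 genes. The values that follow are the log2 fold change in 2cell embryos minus that in MII oocytes. Relative to oocytes, the difference was more positive in embryos for Sprr2e 2.99, Hoxd10 2.59, Atoh1 2.55, Fthl17c 2.47, Dusp4 2.02, Herpud1 1.96, Ciart 1.78, Prmt6 1.76, Tent5b 1.75 and Fzd8 1.71. The remaining positive values were smaller, for Ascl2 1.60, Ccdc85b 1.54, Tmem92 1.32, Irs2 1.26, Tln1 1.15, Fzr1 1.0, Dhodh 0.77, Ooep 0.72 and Smad4 0.60. It was more negative in embryos for Ctsc -2.47, Lpar6 -2.06, Umps -1.78, Pramel6 -1.73, Dnajb9 -1.64, Pabpn1 -1.55 and Nob1 -1.52, and for Ctsl -1.40, Dcaf13 -1.38, Hmox2 -1.30, Nxf1 -1.05, Med7 -0.95 and Tgfbr1 -0.87. The adjusted p of these differences ranged from 5.84e-05 to 0.0379. Many of these genes had means in oocytes under the pseudocount of 0.1 FPKM, which holds the oocyte contrast near 0, so their values largely repeat the 2cell difference. They were Sprr2e, Hoxd10, Atoh1, Fthl17c, Dusp4, Herpud1, Prmt6, Fzd8, Ccdc85b, Tmem92, Irs2, Tln1, Ctsc, Lpar6, Pramel6, Ctsl and Hmox2. No explanation for the others was tested.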

How the results depend on the processing

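By limma, 2565 genes were called, 1181 higher and 1384 lower. With a pseudocount of 1 FPKM 1178 were called (468 higher and 710 lower), and 790 instead of 1206 for the difference between stages. Among 5400 genes with a mean of at least 1 FPKM 1427 were called (732 and 695), of fewer genes tested. Scaling to the sum of FPKM gave 2423 higher and 573 lower. With the replicate letter as a block (replicate block, 8 libraries with a partner and Het_2cell E without) 414 were called (188 and 226, with 3776 at an unadjusted p under 0.05), and with the replicate block and GC correction together 0 (0 and 0), where 3326 genes had an unadjusted p under 0.05 and the smallest adjusted p was 0.0505. The letters did not pair the samples, since libraries of the same letter deviated from their group means with Pearson's r of -0.0699, -0.0400, -0.0679 and 0.0354 over genes, and libraries did not all correlate best with their own letter. Other alternatives, including no filter, quantile scaling and all 19 libraries in 1 fit, kept the total of calls within 1.5 times. Leaving out 1 library gave 1792 to 2563 calls, and 980 to 1494 for the difference between stages. The difference of Cpeb3 was 0.0234 FPKM after scaling (exact permutation p = 0.0635) and 0.0225 to 0.0317 FPKM with 1 library left out. Causes of these shifts were not tested.

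Of the 75 genes named by rule none reversed under any alternative run. GC correction ended the call of 11, a pseudocount of 1 FPKM of 17, the replicate block of 37 and the replicate block with GC correction of all 75. Without 1 library between 71 and 75 kept it. With a pseudocount of 1 FPKM 38 of 74 list counts moved by over 1.5 times, or to or from 0. The number of calls within a list shifted by over 1.5 times or to the other direction for many lists when libraries were scaled to the sum of FPKM, and the balance of higher and lower calls turned in 10 lists under this scaling and in 0 under quantile scaling or values as deposited. Depth limits genes under about 0.184 FPKM, which rest on fewer than 10 fragments at the median length.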
